A study of Mus musculus with 48 samples.

Results

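Toll-like receptors are pattern recognition receptors, and Tlr1, Tlr2, Tlr3, Tlr4, Tlr5, Tlr7, Tlr8, Tlr9 and Tlr13, together with their adaptor Myd88, were followed across 48 livers of FCG mice. These 10 genes were chosen by symbol among the 55414 rows of the count table, each matched 1 row, and all 10 passed the filter on low counts. FCG mice are a model of core genotypes in which the testis-determining gene Sry is missing from the Y chromosome (XY-) and is supplied, where testes are wanted, by an autosomal transgene (SryTg), so that sex chromosomes and gonads vary independently. The 8 groups of 6 mice carried the genotype XX (ovaries, XX Ov), XX;SryTg (testes, XX Te), XY- (ovaries, XY Ov) or XY-;SryTg (testes, XY Te), each with gonads left in place (Intact) or removed at 75 days of age (GDX). All mice received a high-fat diet (HFD, 60% of calories from fat) from 15 to 17 weeks of age, for 11 weeks in Intact and 15 weeks in GDX mice as labelled, whereas the study's methods give slightly different durations. Mice with an unmodified Y chromosome and mice on another diet were not analysed here. Every GDX mouse was fed the diet for longer than every Intact mouse, and so was older at its end. The study's methods also name an intact and a GDX cohort. Gonadectomy, time on diet, age and cohort therefore cannot be told apart. Each mouse gave 1 library of bulk liver RNA, in which fewer cells of a type and less RNA per cell cannot be told apart.

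Toll-like receptors sense conserved microbial molecules and start an inflammatory response. Tlr1, Tlr2, Tlr4 and Tlr5 act at the cell surface on bacterial lipopeptides, lipopolysaccharide and flagellin, and Tlr3, Tlr7, Tlr8, Tlr9 and Tlr13 act in endosomes on nucleic acids. Most of them signal through Myd88, whereas Tlr3 uses the adaptor Ticam1 and Tlr4 uses both. In liver they are known above all from Kupffer cells, the resident macrophages, and from other leukocytes, while hepatocytes and endothelial cells carry some of them. Tlr7, Tlr8 and Tlr13 lie on the X chromosome and the other 7 genes on autosomes, with Tlr1 on chromosome 5, Tlr2 on 3, Tlr3 on 8, Tlr4 on 4, Tlr5 on 1, and Tlr9 and Myd88 on 9.

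Reads on genes ranged from 13071874 to 20045141 per mouse, so that a floor of 3 reads equalled 0.131 to 0.254 CPM (reads of a gene relative to all reads on genes in that library), a limit that covers counting error only. Levels are CPM scaled by the trimmed mean of M values (TMM). The livers carried hepatocyte markers at a summed 72716 to 163200 CPM with none at 0. Xist, the RNA that coats an inactive X chromosome, was at 166 to 1203 CPM in XX and at most 7.5 CPM in XY livers. Ddx3y, which lies on the Y chromosome, was at 44.2 CPM or more in every XY liver, and XX Te Intact mouse 4 had 4.19 CPM of it, from 62 reads. The highest levels of other Y-linked genes in XX Te Intact livers were 4.26 CPM (Eif2s3y), 2.1 CPM (Uty) and 1.08 CPM (Kdm5d). In XY livers the lowest were 41.5, 15.1 and 14.9 CPM in the same order. The source of these reads was not tested. Reads counted to no annotated feature made up 3.47 to 6.2% of the library in Intact and 8.52 to 11.3% in GDX mice. XX Te Intact mouse 2 stood apart from its group, as described with the results it touches.

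Promoter windows of 250 bases before the annotated start were read for 8 of the 10 genes (9 windows, RefSeq, build GRCm38.p6), and Tlr4 and Tlr7 were not matched. Each is written 5′ to 3′ on the strand given. For all 9 windows the bases after the start were compared with transcripts of the same gene. For 6 they matched on this strand, and for 3 they matched on neither strand. Of genes higher in XY, the windows of Tlr2 and Myd88 and the second of Tlr1 lack the motif marked below and are not shown. The windows shown are those of 4 receptors higher in XY that hold it, beside that of Tlr5, which was higher in XX. They are Tlr8 at chrX:167264330-167264579 (minus strand), Tlr9 at chr9:106222348-106222597 (plus strand), the first of the windows of Tlr1 at chr5:64933559-64933808 (minus strand), Tlr13 at chrX:106143025-106143274 (plus strand) and Tlr5 at chr1:182954538-182954787 (plus strand). Capitals mark GAGGAA, the core bound by the myeloid factor PU.1, or its reverse complement.
Tlr8: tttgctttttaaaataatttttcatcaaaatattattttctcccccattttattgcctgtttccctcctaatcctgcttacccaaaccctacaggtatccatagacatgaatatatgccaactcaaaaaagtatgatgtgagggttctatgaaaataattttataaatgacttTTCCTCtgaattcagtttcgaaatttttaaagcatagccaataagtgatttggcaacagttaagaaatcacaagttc
Tlr9: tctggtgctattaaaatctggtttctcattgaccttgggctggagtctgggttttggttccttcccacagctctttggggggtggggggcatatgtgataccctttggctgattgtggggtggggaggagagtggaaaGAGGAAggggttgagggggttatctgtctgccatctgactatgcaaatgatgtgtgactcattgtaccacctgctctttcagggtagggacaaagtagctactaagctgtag
Tlr1: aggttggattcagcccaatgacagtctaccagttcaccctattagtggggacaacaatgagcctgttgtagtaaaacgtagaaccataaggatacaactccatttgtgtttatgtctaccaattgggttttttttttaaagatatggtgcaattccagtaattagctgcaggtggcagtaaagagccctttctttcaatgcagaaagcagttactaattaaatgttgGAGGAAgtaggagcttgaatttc
Tlr13: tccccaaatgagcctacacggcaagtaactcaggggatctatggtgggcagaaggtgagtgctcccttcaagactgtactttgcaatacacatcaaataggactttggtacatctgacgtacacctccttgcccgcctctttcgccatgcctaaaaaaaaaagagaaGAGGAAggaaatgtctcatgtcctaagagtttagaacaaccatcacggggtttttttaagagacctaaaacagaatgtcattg
Tlr5: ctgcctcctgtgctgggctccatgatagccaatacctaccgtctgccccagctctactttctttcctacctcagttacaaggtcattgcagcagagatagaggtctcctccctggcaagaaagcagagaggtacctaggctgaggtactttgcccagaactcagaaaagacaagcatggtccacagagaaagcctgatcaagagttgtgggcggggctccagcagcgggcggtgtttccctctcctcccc
GAGGAA occurred once, on either strand, in the windows of Tlr8, Tlr9, Tlr13 and the first window of Tlr1, and not in those of Tlr2, Tlr3, Tlr5, Myd88 or the second of Tlr1. Of 32851 promoter windows of this length, 7639 (23.3%) held it. Further motifs were searched on both strands. TGANTCA (AP-1) was found in the window of Tlr9 and in 6.75% of all windows, and GAAANNGAA (a core of the interferon-stimulated response element) in those of Myd88 and Tlr8 and in 7.13%. The NF-kappaB consensus was found in Tlr2 and Tlr3 and in 3.9% of all windows, and CCAAT in Tlr1, Tlr5 and Tlr8 and in 33.8%. No match of one motif overlapped a match of another in these windows. These matches describe letters in a window and do not show that a factor binds there.

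To ask how the sex chromosomes bear on these receptors, all 24 XX were compared with all 24 XY livers, as the mean over the 4 combinations of gonad and gonadal status. Tlr8, Tlr9, Tlr1, Tlr7, Tlr13, Tlr4, Tlr2 and Myd88 were higher in XY livers, by 1.47-fold for Myd88 to 7.85-fold for Tlr8, while Tlr5 was 1.66-fold higher in XX livers and Tlr3 did not pass the test. Thus 9 of 10 genes were called (adjusted p under 0.05, edgeR quasi-likelihood, Benjamini-Hochberg over 15414 genes) against a background of 36.7% of all genes tested, and 8 of 10 were higher in XY against 14.8%. The median log2 difference, XX minus XY, was -1.56 over the 10 genes and 0.05 over all genes tested. All 9 calls were kept in each of the 48 fits that left out 1 mouse. The receptors are described below by where they act.

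Tlr8 (ENSMUSG00000040522), an endosomal receptor of RNA, had the largest difference. Tlr8 in Ov Intact livers ran from 3.37 to 8.44 CPM (median 5.47) in XX and from 27.5 to 54.7 CPM (median 32) in XY mice. Tlr8 in Te Intact livers ran from 2.65 to 9.05 CPM (median 3.72) in XX and from 7.24 to 26.1 CPM (median 14.7) in XY mice. After GDX the XX levels were 2.68 to 5.05 CPM (median 3.77) in Ov and 1.52 to 5.23 CPM (median 4.45) in Te mice. Every XY liver was above every XX liver in Ov Intact, Ov GDX and Te GDX mice, and in Te Intact mice 4 of 6 XY livers were. The XY levels after GDX were 32.7 to 67 CPM (median 47.4) in Ov and 32.3 to 88.8 CPM (median 52) in Te mice, with the highest medians of the 8 groups. The log2 difference, XX minus XY, was -2.97 ± 0.16 SE (adjusted p = 1.93e-19, edgeR quasi-likelihood, Benjamini-Hochberg).

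Tlr7 (ENSMUSG00000044583), the neighbour of Tlr8 on the X chromosome and a receptor of single-stranded RNA, showed the same separation at a smaller span. Tlr7 in Ov Intact livers ran from 4.68 to 7.92 CPM (median 6.73) in XX and from 16.2 to 23.3 CPM (median 18.7) in XY mice. Tlr7 in Te Intact livers ran from 2.31 to 8.23 CPM (median 3.8) in XX and from 7.06 to 14.5 CPM (median 9.83) in XY mice. In Te Intact mice the ranges overlapped, with 4 of 6 XY livers above all XX livers, and in the other combinations they did not. After GDX, Tlr7 was at 2.44 to 4.61 CPM (median 3.98) in XX Ov and 15.3 to 25.5 CPM (median 20.9) in XY Ov mice. Tlr7 in Te GDX livers ran from 1.27 to 4.61 CPM (median 3.37) in XX and from 11.3 to 38.2 CPM (median 20.5) in XY mice. Its log2 difference was -2.0 ± 0.13 SE, 4-fold (adjusted p = 3.35e-17, edgeR quasi-likelihood, Benjamini-Hochberg).

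Tlr9 (ENSMUSG00000045322), which binds unmethylated CpG DNA, was the lowest of the receptors in XX livers, at 2 to 22 reads per mouse, so that its single values are imprecise. Tlr9 in Ov Intact livers ran from 0.199 to 0.885 CPM (median 0.516) in XX and from 1.37 to 3.77 CPM (median 2.6) in XY mice. Tlr9 in Te Intact livers ran from 0.271 to 1.12 CPM (median 0.464) in XX and from 0.234 to 3.45 CPM (median 1.11) in XY mice, which overlapped, with 3 of 6 XY livers above and 1 below all XX livers. After GDX the XX levels were 0.297 to 1.12 CPM (median 1.03) in Ov and 0.127 to 0.784 CPM (median 0.482) in Te mice. The XY levels after GDX, 4.42 to 8.37 CPM (median 6.06) in Ov and 4.02 to 10.5 CPM (median 5.87) in Te mice, were above every other group without overlap. The log2 difference of Tlr9 was -2.61 ± 0.22 SE, or 6.12-fold (adjusted p = 2.63e-13, edgeR quasi-likelihood, Benjamini-Hochberg).

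Tlr13 (ENSMUSG00000033777), a receptor of bacterial ribosomal RNA, is X-linked as well but lies apart from Tlr7 and Tlr8. Tlr13 in Ov Intact livers ran from 2.51 to 5.52 CPM (median 4.01) in XX and from 9.17 to 18.6 CPM (median 12) in XY mice. Tlr13 in Te Intact livers ran from 2.26 to 6.65 CPM (median 2.99) in XX and from 2.49 to 10.1 CPM (median 5.09) in XY mice. These Te Intact ranges overlapped, with 3 of 6 XY livers above all XX livers. After GDX, the levels were 2.26 to 4.88 CPM (median 4.04) in XX Ov and 12.2 to 22.3 CPM (median 18.3) in XY Ov mice. Tlr13 in Te GDX livers ran from 1.52 to 5.8 CPM (median 3.7) in XX and from 8.42 to 35 CPM (median 16.9) in XY mice. Ov Intact, Ov GDX and Te GDX ranges stood apart, and the log2 difference was -1.74 ± 0.16 SE (adjusted p = 2.13e-12, edgeR quasi-likelihood, Benjamini-Hochberg).

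Tlr3 (ENSMUSG00000031639), the endosomal receptor of double-stranded RNA and the member that does not need Myd88, was close to level across the groups, with medians of 10.2 to 14.2 CPM and single mice between 8.57 and 16.3 CPM. Its log2 difference between XX and XY was -0.06 with a 95% interval of -0.18 to 0.06 (adjusted p = 0.47, edgeR quasi-likelihood, Benjamini-Hochberg). Ranges of XX and XY overlapped in all 4 combinations. After GDX alone the difference was -0.16 (-0.33 to 0.00), with an adjusted p of 0.126 in edgeR and 0.0438 in DESeq2, and it passed with library totals (-0.35), with at least 10 counts in at least 24 mice (-0.26) and with only the groups compared (-0.22).

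**Figure D1:**
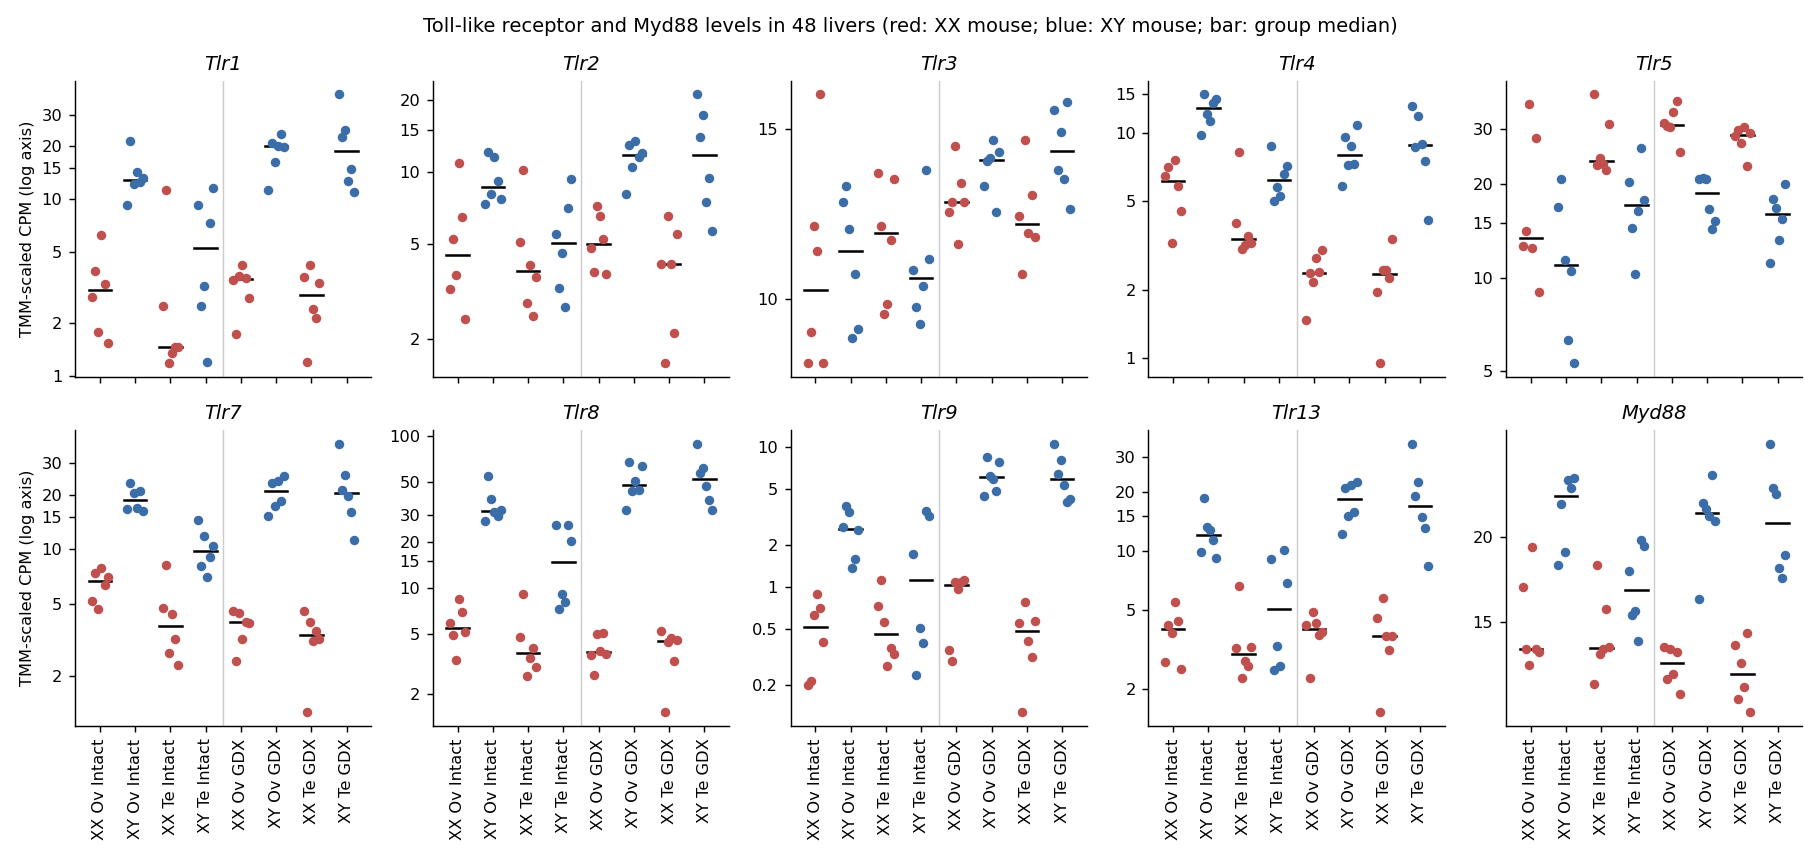
TMM-scaled CPM (log axis, a panel per gene) in each of the 48 livers, with 6 mice in each of the 8 groups, XX in red, XY in blue and bars at the group medians. For Tlr8 the XY livers after GDX sat at 32.3 to 88.8 CPM, all above the XX livers, whereas Tlr3 stayed between 8.57 and 16.3 CPM and Tlr5 was lower in XY than in XX livers after GDX.

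Among the surface receptors, Tlr4 (ENSMUSG00000039005), which senses lipopolysaccharide, had its highest levels in XY Ov Intact livers. Tlr4 in Ov Intact livers ran from 3.25 to 7.65 CPM (median 6.13) in XX and from 9.87 to 14.9 CPM (median 12.9) in XY mice. Tlr4 in Te Intact livers ran from 3.05 to 8.23 CPM (median 3.37) in XX and from 4.98 to 8.79 CPM (median 6.18) in XY mice, with 1 of 6 XY livers above all XX livers. After GDX the XX levels were the lowest, at 1.48 to 3.02 CPM (median 2.39) in Ov and 0.949 to 3.39 CPM (median 2.37) in Te mice. No XY liver reached down to them, with 5.83 to 10.9 CPM (median 8.05) in Ov and 4.13 to 13.2 CPM (median 8.83) in Te mice. The log2 difference was -1.39 ± 0.12 SE, or 2.61-fold (adjusted p = 9.44e-13, edgeR quasi-likelihood, Benjamini-Hochberg).

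Tlr1 (ENSMUSG00000044827), which pairs with Tlr2 to bind lipopeptides and whose paralog Tlr6 may exchange reads with it, differed about as much as Tlr7. Tlr1 in Ov Intact livers ran from 1.54 to 6.25 CPM (median 3.05) in XX and from 9.19 to 21.3 CPM (median 12.7) in XY mice. In Te Intact livers it ran from 1.18 to 11.2 CPM (median 1.45) in XX and from 1.2 to 11.5 CPM (median 5.26) in XY mice, where XX Te Intact mouse 2 had the 11.2 CPM. Without overlap, the GDX levels were 1.73 to 4.23 CPM (median 3.52) and 1.2 to 4.23 CPM (median 2.86) in XX Ov and XX Te mice. They were 11.3 to 23.4 CPM (median 19.9) and 11 to 39 CPM (median 18.6) in XY Ov and XY Te mice. Its log2 difference was -2.07 ± 0.22 SE (adjusted p = 1.96e-10, edgeR quasi-likelihood, Benjamini-Hochberg). Tlr2 itself (ENSMUSG00000027995), the shared subunit, had group medians of 3.85 to 5.01 CPM in XX and 5.04 to 11.8 CPM in XY livers, and XX and XY ranges stood apart in Ov GDX mice alone. The log2 difference of Tlr2 was -0.94 ± 0.17 SE, or 1.92-fold (adjusted p = 1.62e-05, edgeR quasi-likelihood, Benjamini-Hochberg).

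Tlr5 (ENSMUSG00000079164), the receptor of bacterial flagellin, went the other way. Tlr5 in Ov Intact livers ran from 8.99 to 36 CPM (median 13.3) in XX and from 5.31 to 20.7 CPM (median 11) in XY mice. Tlr5 in Te Intact livers ran from 22.2 to 38.7 CPM (median 23.6) in XX and from 10.3 to 26 CPM (median 17.1) in XY mice, and 5 of 6 XY livers were below all XX livers. Ov Intact ranges overlapped more, with 2 of 6 XY livers below all XX livers. After GDX, every XY liver was below every XX liver, at 25.3 to 36.8 CPM (median 30.9) in XX Ov against 14.3 to 20.9 CPM (median 18.6) in XY Ov mice. Tlr5 in Te GDX livers ran from 22.8 to 30.5 CPM (median 28.7) in XX and from 11.1 to 19.9 CPM (median 16.1) in XY mice. The log2 difference was 0.73 ± 0.13 SE (adjusted p = 9.45e-06, edgeR quasi-likelihood, Benjamini-Hochberg).

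Myd88 (ENSMUSG00000032508), the adaptor that carries the signal of all these receptors except Tlr3, differed by less than most of them. Its group medians were 12.6 to 13.7 CPM in XX and 16.7 to 22.9 CPM in XY livers, and XX and XY ranges overlapped in Intact but not in GDX mice. The log2 difference was -0.56 ± 0.06 SE, or 1.47-fold (adjusted p = 6.94e-11, edgeR quasi-likelihood, Benjamini-Hochberg).

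Next, the XX to XY difference was taken apart by gonadal status. In Intact mice 8 of 10 genes were called against a background of 10.7%, and in GDX mice 9 of 10 against 34.3%. Tlr8 was 4.7-fold higher in XY than in XX among Intact and 13.1-fold among GDX mice, Tlr7 2.65-fold and 6.04-fold, and Tlr4 1.82-fold and 3.75-fold. For these 3 genes the difference between the 2 differences, GDX minus Intact, passed the test at -1.48 ± 0.30 SE (Tlr8), -1.19 ± 0.25 SE (Tlr7) and -1.04 ± 0.25 SE (Tlr4) on the log2 scale (adjusted p = 0.00975, 0.011 and 0.0184, edgeR quasi-likelihood, Benjamini-Hochberg). That is 3 of 10 genes against a background of 2.12%, and the 3 calls were kept in all 48 fits that left out a mouse. Without XX Te Intact mouse 2 the count stayed at 3 while the share over all genes fell to 0.739%. With other mice left out the count rose together with the share over all genes, to 6 against 4.8% without XX Ov Intact mouse 6 and to 5 without XY Ov Intact mouse 6 (3.55%), XY Te Intact mouse 3 (3.27%) or XY Te Intact mouse 5 (4.67%). Tlr9 had -1.46 (-2.38 to -0.53), Tlr1 -1.24 (-2.12 to -0.36) and Tlr13 -1.06 (-1.69 to -0.42), of similar size to the called genes, but did not pass (adjusted p = 0.0762, 0.125 and 0.0577, edgeR quasi-likelihood, Benjamini-Hochberg). Tlr13 passed with DESeq2 size factors, library totals, at least 10 counts in at least 24 mice and DESeq2. Tlr9 passed with the last 2 of these, and Myd88 with library totals and with at least 10 counts in at least 24 mice. Tlr13 also passed in 11 and Tlr9 and Myd88 each in 3 of the 48 fits that left out a mouse. For the same difference, 0 of 9 Kupffer cell markers were called in edgeR, 6 had an unadjusted p under 0.05 and DESeq2 called 3. Tlr5 had the reverse sign at 0.17 (-0.34 to 0.68). Its call in Intact mice was lost without XX Ov Intact mouse 3 (log2 difference 0.50, adjusted p = 0.0585), with library totals in place of TMM (0.61, adjusted p = 0.0587) and with only the groups compared (0.62, adjusted p = 0.175).

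Within the single combinations, 7 of 10 genes were called in Ov Intact mice (background 7.79%), 2 of 10 in Te Intact (2.1%), 9 of 10 in Ov GDX (19.1%) and 9 of 10 in Te GDX mice (19.4%). The genes called in Te Intact mice were the X-linked neighbours Tlr7 (-1.24 ± 0.25 SE, adjusted p = 0.00282) and Tlr8 (-1.84 ± 0.31 SE, adjusted p = 0.000238), both with more reads in XY (edgeR quasi-likelihood, Benjamini-Hochberg). When only the groups compared were fitted, neither passed (adjusted p = 0.197 and 0.162 in edgeR), and 0.0974% of all genes were called. Leaving out XX Te Intact mouse 2, which had the highest level of its group in 8 of the 10 genes, raised this count to 5 against a background of 3.61%, with Tlr1 at -1.88, Tlr4 at -0.92 and Tlr9 at -1.84 gained. Across the combinations the log2 difference of Tlr8 ran from -1.84 in Te Intact to -3.77 in Te GDX mice and that of Tlr1 from -0.84 to -2.86. The difference of Tlr5, XX minus XY, ran only from 0.62 to 0.83 over the same combinations. Its calls after GDX were lost without XY Ov GDX mouse 5 in Ov (0.74, adjusted p = 0.0517) and without XY Te GDX mouse 1 in Te mice (0.74, adjusted p = 0.0598). Both were lost as well with library totals (0.63 and 0.65, adjusted p = 0.154 and 0.13) and with no filter beyond 1 count (0.71 and 0.76, adjusted p = 0.0882 and 0.0585).

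**Figure D2:**
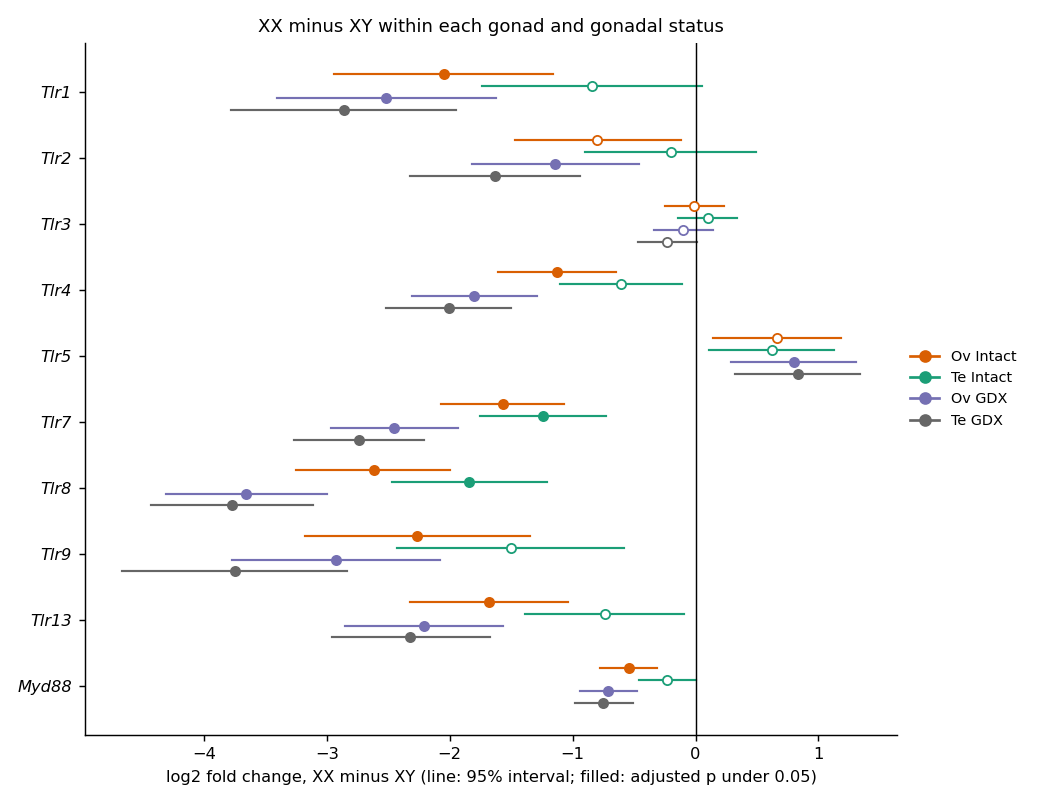
The log2 fold change, XX minus XY, of each gene in Ov Intact, Te Intact, Ov GDX and Te GDX mice, with 95% intervals as lines and filled points where the adjusted p was under 0.05. Tlr8 reached -3.77 in Te GDX mice, the Te Intact values lay nearest to 0 for 9 of the 10 genes, and Tlr5 alone was called on the side higher in XX.

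Because Tlr7 and Tlr8 adjoin each other, the protein-coding genes around them were read in the order of the X chromosome of GRCm38.p6. Tlr8 and Tlr7 sat in a run from Tmsb4x to Mid1, of which 8 of 11 genes were tested and all 8 were higher in XY livers. Without Tlr7 and Tlr8, 6 of 6 were, at a median log2 difference of -0.86. On the side of Tmsb4x away from Tlr8, from Piga to Egfl6, 9 of 13 genes were tested and those called were Mospd2 (0.20) and Gpm6b (0.37), both higher in XX. The place where these runs were divided was chosen after the values were seen. Among all 424 tested X-linked genes outside the run from Tmsb4x to Mid1, 67 (15.8%) were higher in XY and 91 in XX.

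The genes beyond Tlr7 had smaller fold differences than Tlr7 and Tlr8 themselves. Prps2, Msl3, Arhgap6, Hccs and Mid1 were 1.61- to 1.88-fold higher in XY livers, while Tlr7 was 4-fold, Tmsb4x 5.55-fold and Tlr8 7.85-fold higher. Prps2 in XY was above every XX liver in each of the 4 combinations. None of these 5 genes was called for the difference between GDX and Intact mice, by edgeR's quasi-likelihood test or by DESeq2, or at an unadjusted p under 0.05, and whether they differ in this from Tlr7 and Tlr8 was not tested. A copy of an X segment with Tlr7 and Tlr8 on the Y chromosome has been described in FCG mice. Whether the mice studied here carry it was not tested. The other members lie outside this run. Of these, Tlr13, Tlr1, Tlr4 and Tlr9 were 2.61- to 6.12-fold higher in XY. Tlr2 (log2 difference -0.94) and Myd88 (-0.56) were higher in XY by less, Tlr3 (-0.06) was not called and Tlr5 (0.73) was higher in XX.

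**Figure D3:**
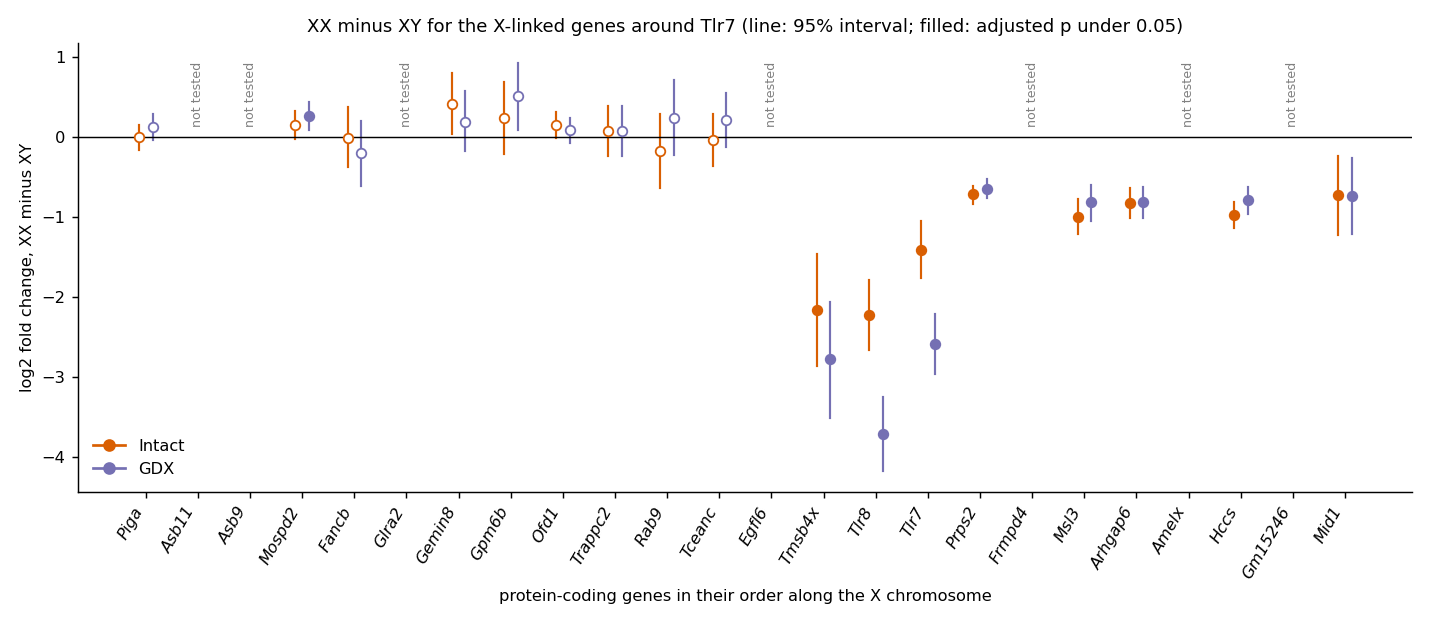
The log2 fold change, XX minus XY, of the protein-coding genes around Tlr7 in their order along the X chromosome, in Intact (orange) and GDX (purple) mice, with 95% intervals and filled points where the adjusted p was under 0.05. From Tmsb4x to Mid1 every tested gene was below 0 in both, and the step between Intact and GDX mice was largest at Tlr8, from -2.23 to -3.72.

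The gonadal comparison asked whether ovaries and testes gave different levels in Intact mice, as the mean over XX and XY. Tlr4 (0.72 ± 0.17 SE), Tlr7 (0.75 ± 0.18 SE), Tlr8 (0.75 ± 0.21 SE) and Tlr13 (0.63 ± 0.22 SE) were higher in Ov than in Te livers on the log2 scale, by 1.55- to 1.68-fold, and Tlr5 was lower (-0.54 ± 0.18 SE). Their adjusted p ran from 0.00165 for Tlr7 to 0.0338 for Tlr13 (edgeR quasi-likelihood, Benjamini-Hochberg). That made 5 of 10 genes against a background of 25.3%. Pooled over XX and XY, Tlr4 ran from 3.25 to 14.9 CPM in Ov Intact and from 3.05 to 8.79 CPM in Te Intact livers, with overlap. Without XX Te Intact mouse 2 the count was 8 against 30.1%, with Tlr1 (1.14) and Tlr2 (0.68) among those gained, and without XX Te Intact mouse 1 it was 3 against 19.8%. With library totals in place of TMM 3 were called against 20.5%, and with only the groups compared 3 against 11.8%, with Tlr5 and Tlr13 lost in both. Tlr13 was also lost with no filter beyond 1 count (0.63, adjusted p = 0.0826 in edgeR). Tlr5 lost its call without XX Te Intact mouse 1 (-0.48) or XY Te Intact mouse 5 (-0.47), and Tlr13 in 10 of the 48 fits that left out a mouse.

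After GDX, Ov and Te livers were not told apart. By edgeR's quasi-likelihood test 0 of 10 genes were called, 0 had an unadjusted p under 0.05 and 0 were called by DESeq2, against a background of 0.0908%. The widest intervals were those of Tlr9, -0.25 to 1.0, and Tlr1, -0.60 to 0.63, on the log2 scale, so that differences within these bounds were not excluded. For Tlr4, Tlr7 and Tlr8 the intervals were -0.39 to 0.33, -0.31 to 0.41 and -0.48 to 0.39.

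Gonadectomy was then compared with Intact gonads of the same type, as the mean over XX and XY. This comparison also holds the longer HFD, the later age, the cohort and the larger share of reads counted to no feature. These cannot be told apart from gonadectomy. Between Ov Intact and Ov GDX livers, Tlr4 fell by 0.95 on the log2 scale, while Tlr9 (0.96 ± 0.31 SE), Tlr5 (0.67 ± 0.18 SE) and Tlr3 (0.26 ± 0.08 SE) rose. These were 4 of 10 genes against a background of 69.4%, with adjusted p from 5.97e-06 for Tlr4 to 0.00653 for Tlr3 (edgeR quasi-likelihood, Benjamini-Hochberg). With 1 surrogate variable in the fit the calls of Tlr9 (0.42, adjusted p = 0.193 in edgeR) and Tlr3 (0.07, adjusted p = 0.351 in edgeR) ended, leaving 2 of 10 against 55.1%. Between Te Intact and Te GDX livers 5 of 10 genes rose against a background of 63.3%, namely Tlr13 (0.90 ± 0.22 SE), Tlr9 (0.83 ± 0.33 SE), Tlr1 (0.81 ± 0.31 SE), Tlr8 (0.77 ± 0.22 SE) and Tlr3 (0.24 ± 0.08 SE). Their adjusted p lay between 0.000654 for Tlr13 and 0.0284 for Tlr9 (edgeR quasi-likelihood, Benjamini-Hochberg). Group medians rose more in XY Te than in XX Te livers. From Te Intact to Te GDX, Tlr8 medians went from 3.72 to 4.45 CPM in XX and from 14.7 to 52 CPM in XY. In the same order they were 1.45 to 2.86 and 5.26 to 18.6 CPM for Tlr1. They were 2.99 to 3.7 and 5.09 to 16.9 CPM for Tlr13, and 0.464 to 0.482 and 1.11 to 5.87 CPM for Tlr9. For Tlr3 they were 11.7 to 11.9 and 10.5 to 14.2 CPM. Without XY Te GDX mouse 1, the highest of its group in 8 of the 10 genes, 3 were called against 60.6%, with Tlr1 at 0.66 and Tlr9 at 0.72 lost. Tlr9 was also lost without XX Te GDX mouse 3 (0.71). With library totals in place of TMM 8 were called against 68.2%, with no filter beyond 1 count 2 against 31.1%, and 3 each with 1 surrogate variable (60.4%) or with only the groups compared (64.6%). The 4 of 10 and 5 of 10 genes called with TMM and the filter were a smaller share than that of all genes.

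The castration and ovariectomy effects themselves were compared by their difference. By edgeR's quasi-likelihood test 0 of 10 genes were called against a background of 5.6%, although 5 had an unadjusted p under 0.05 and DESeq2 called 2. Those 5 were Tlr4 (0.75, interval 0.25 to 1.24), Tlr7 (0.69, 0.19 to 1.2), Tlr8 (0.80, 0.19 to 1.41), Tlr13 (0.64, 0.01 to 1.28) and, with the reverse sign, Tlr5 (-0.73, -1.24 to -0.22). Leaving out XX Te Intact mouse 2 gave 4 calls against 9.35%, XX Ov Intact mouse 3 gave 3 against 12%, XX Te GDX mouse 2 gave 2 against 5.25% and XY Te GDX mouse 6 gave 2 against 6.12%. Leaving out XX Ov Intact mouse 5, XY Ov GDX mouse 6, XY Ov Intact mouse 1, XY Ov Intact mouse 2, XY Te Intact mouse 1 or XY Te Intact mouse 3 gave 1, against 5.08 to 8.5%.

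**Figure D4:**
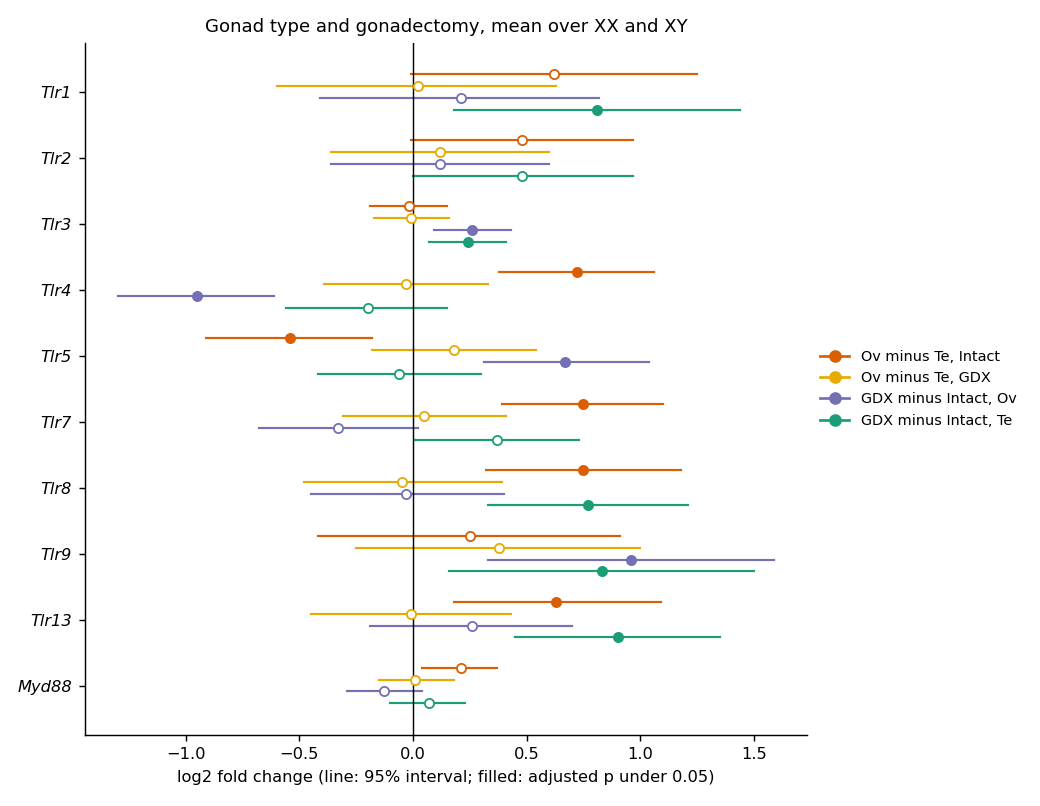
The log2 fold change of each gene for Ov minus Te in Intact and in GDX mice and for GDX minus Intact in Ov and in Te mice, each the mean over XX and XY, with 95% intervals and filled points where the adjusted p was under 0.05. The Ov minus Te points lay between -0.05 and 0.38 after GDX, and Tlr4 in Ov mice, at -0.95, was the one called decrease with GDX.

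Levels between genes were compared per kilobase of exon (CPM per kb). Exon lengths came from an annotation of an older mouse genome build than GRCm39, to which the reads were aligned. They may differ from the exons used in counting, which limits ranks of genes at close levels. Tlr5 led in XX Te Intact, XX Ov GDX and XX Te GDX livers, at means of 7.66, 8.9 and 7.92 CPM per kb, though in XX Te Intact livers (SD 1.87) it overlapped within the SD with Myd88 (5.64 ± 0.835). Myd88 led in XX Ov Intact livers (5.83 ± 0.974, SD, n = 6), where Tlr5 followed at 5.3 ± 3.06 without a difference beyond the spread. Tlr8 led in 3 of the XY groups, at 9.96 ± 2.79 (SD, n = 6) in XY Ov Intact, 14 ± 3.6 in XY Ov GDX and 15.1 ± 5.65 in XY Te GDX livers. Myd88 followed at 8.51 ± 1.03, 8.25 ± 1.08 and 8.29 ± 1.52, and overlapped with Tlr8 within the SD in XY Ov Intact and XY Te GDX livers. In XX groups Tlr8 held rank 5 or 6, at 1.1 to 1.61 CPM per kb. XY Te Intact livers were led by Myd88 (6.61 ± 0.916), before Tlr5 (4.96 ± 1.52) and Tlr8 (4.49 ± 2.5), and all 3 overlapped within their SD. Tlr9 was last in all 4 XX and both XY Intact groups (0.132 to 0.735 CPM per kb), and Tlr4 was last in the XY GDX groups (1.49 and 1.64).

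Markers of several cell types that could carry these receptors moved between XX and XY as well. Their counts stand beside the 36.7% of all genes called in either direction and the 14.8% called higher in XY. Of the Kupffer cell markers 8 of 9 were higher in XY, at a median log2 difference of -1.19, with Marco (-2.57) and C1qb (-1.40) the farthest. Of the monocyte and monocyte-derived macrophage markers 5 of 7 were higher in XY, led by Itgam (-3.25), and Gpnmb was higher in XX (1.63). All 6 tested neutrophil markers of 7 were higher in XY, led by S100a8 (-3.82) and S100a9 (-3.79), as were 4 of 5 B cell markers, led by Cd79b (-2.43). Among sinusoidal endothelial markers 1 of 6 was higher in XY (Pecam1, -1.31), and among hepatocyte markers 1 of 6 was higher in XX (Apob, 0.40). Both were smaller shares called than that of all genes. Of the plasmacytoid dendritic cell markers 2 of 4 were tested, with 0 called by edgeR's quasi-likelihood test or DESeq2 and 0 at an unadjusted p under 0.05.

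In summed level, Kupffer cell markers ran from 196 to 996 CPM in XX and from 375 to 1510 CPM in XY livers. Monocyte markers ran from 38.4 to 379 CPM in XX and from 70.1 to 662 CPM in XY livers. Neutrophil markers ran from 2.56 to 37.0 CPM in XX and from 7.01 to 796 CPM in XY livers, and Ly6g was at 0 in every XX Te Intact, XX Ov GDX and XX Te GDX liver. XX Te Intact mouse 2, the mouse with the highest receptor levels of its group, also had the highest sums there, at 996 CPM of Kupffer cell, 379 CPM of monocyte and 37.0 CPM of neutrophil markers. B cell markers ran from 2.03 to 12.1 CPM in XX and from 4.73 to 36.6 CPM in XY livers. The hepatocyte sums of XX (72716 to 163200 CPM) and XY livers (84519 to 149435 CPM) overlapped. No Kupffer cell marker was at 0 in any group, and the part of these cells in the receptor differences was not tested. Between XX and XY, 4 of 9 Kupffer cell markers were called in Ov Intact (background 7.79%), 8 in Ov GDX (19.1%) and 7 in Te GDX mice (19.4%). In Te Intact mice (2.1%) 0 were called by edgeR's quasi-likelihood test, 4 had an unadjusted p under 0.05 and DESeq2 called 0. Between Ov and Te Intact livers 6 of 9 Kupffer cell markers were higher in Ov, against 25.3% of all genes called in either direction. After GDX (0.0908%) 0 of 9 were called by edgeR's quasi-likelihood test or DESeq2 and 0 had an unadjusted p under 0.05.

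**Figure D5:**
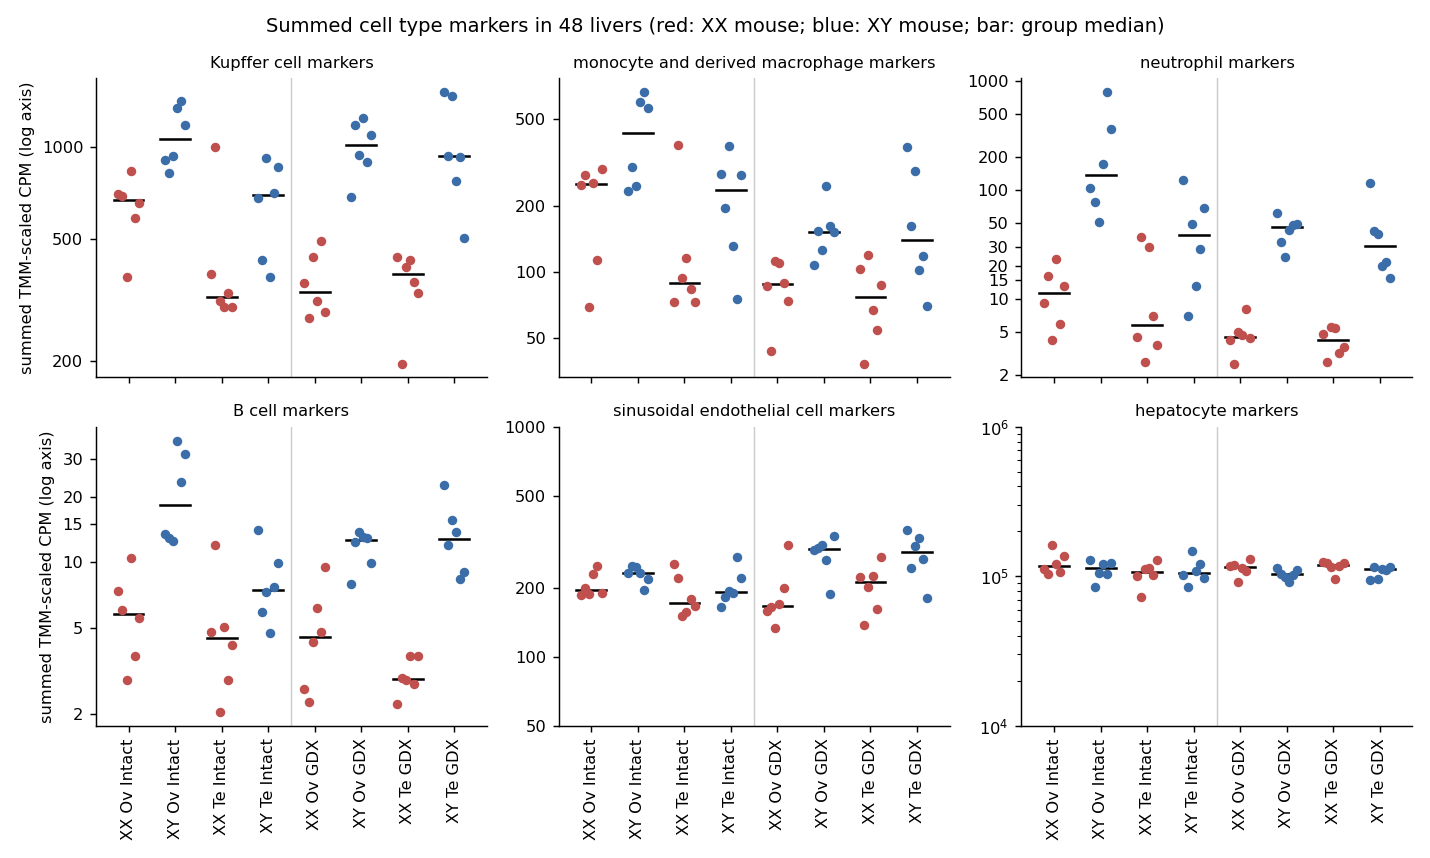
Summed TMM-scaled CPM (log axis) of the markers of 6 cell types in each liver, XX in red and XY in blue, with bars at the medians of the 8 groups. Kupffer cell sums after GDX were 196 to 494 CPM in XX and 502 to 1510 CPM in XY livers, while hepatocyte sums overlapped in every pair of groups.

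The pathway around the receptors was read from lists of its other genes, whose counts stand beside the 36.7% of all genes called. Of the other toll-like receptors, Tlr6 was higher in XY (-1.13) and Tlr12 in XX livers (0.90), and Tlr11 did not pass the test (-0.33, interval -0.86 to 0.20). Among 9 receptor partners and trafficking proteins, 4 were higher in XY and 1 in XX. Cd180 (-1.96) and its partner Ly86 (-1.31), which form a Tlr4-like complex, had the largest differences, and Ly96, the lipopolysaccharide-binding partner of Tlr4, had -0.12 (-0.27 to 0.02). Unc93b1, the chaperone that carries the endosomal receptors to their compartment, had -0.79. Of 16 tested adaptors and proximal kinases 6 were called, close to the share of all genes. Of these 3 were higher in XY, with Ticam2 (-2.04), the bridging adaptor of Tlr4, and Ikbke (-0.64) the farthest, and 3 were higher in XX, with Chuk (0.22) and Ikbkg (0.21) the farthest.

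Downstream of the adaptors, 3 of 5 transcription factors were higher in XY, of which Irf5 (-1.26), an interferon regulatory factor that acts with Myd88, and Nfkb1 (-0.65) differed most, while Rela had 0.01 (-0.15 to 0.16). All 5 tested inhibitors of 6 were called, with Irak3 (-1.81), which holds back Myd88 signalling in macrophages, and Nfkbia (-0.64) higher in XY together with Tnfaip3, and Tollip (0.20) and Sigirr (0.16) higher in XX. Of 9 tested inflammatory target genes 7 were higher in XY, at a median log2 difference of -2.64, led by the cytokines Il6 (-3.23) and Il1b (-3.05). Cxcl10 (-0.10, interval -0.51 to 0.30) and Ccl2 (-0.60, interval -1.11 to -0.10, adjusted p = 0.0543) did not pass (edgeR quasi-likelihood, Benjamini-Hochberg). For the gonadal effect 5 of the 9 targets were higher in Ov, against 25.3% of all genes called in either direction. With ovariectomy 4 of the 9 fell and with castration 2 rose and 2 fell, smaller shares called than the 69.4% and 63.3% of all genes.

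Within the groups, the receptors varied together from mouse to mouse to different degrees. As a description over 48 mice, after each group's mean was subtracted, Pearson's r of log2 CPM was 0.90 between Tlr8 and Tlr13, 0.88 between Tlr1 and Tlr2 and 0.78 between Tlr7 and Tlr8. Tlr5 varied less with most of the others, with r of -0.29 with Myd88, -0.20 with Tlr4 and -0.16 with Tlr7. Its r was 0.03 with Tlr1, 0.09 with Tlr2 and Tlr8, 0.19 with Tlr13, 0.32 with Tlr9 and 0.63 with Tlr3. Tlr3 in turn had 0.04 with Myd88, 0.20 with Tlr4 and 0.25 to 0.54 with the remaining receptors. All values share the library and its scaling factor. Among 12373 genes searched, those most like Tlr8 were Nckap1l and Slc11a1 (both 0.94), most like Tlr13 Laptm5 and Sykb (both 0.94), and most like Tlr1 BC013712, Plekho2 and Cyth4 (each 0.93). Tlr9 was most like Iqgap1 (0.89), Tlr2 like Slc15a3 and Cotl1 (both 0.92), Tlr4 like Ptplad2 (0.85) and Tlr7 like Soat1 (0.84). Tlr3 was most like Ddx58 (0.85), the gene of the cytosolic RNA sensor RIG-I, Tlr5 like 1110018G07Rik (0.92) and Myd88 like Ncf4 (0.83). A single mouse was highest of its group in 8 or 9 of the 10 genes in XX Ov Intact (mouse 4), XX Te Intact (mouse 2), XY Ov Intact (mouse 2) and XY Te GDX (mouse 1) livers, and in the other 4 groups no mouse was highest in more than 5.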

How the data were processed

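Liver RNA-seq libraries of 48 FCG mice, 6 in each of 8 groups taken from the genotype and treatment labels, were analysed. The authors aligned reads to GRCm39 with STAR (version 2.7.10a) and deposited whole-number counts per gene, not normalized; annotation release, strand setting and trimming are not given in the sources used here, so paralogs and overlapping genes may have exchanged reads. Of 55414 gene identifiers 31020 (56.0%) were paired with a symbol, and 4 summary lines, 25.5 to 42.3% of a library, were left out. Reads on genes were 13071874 to 20045141 per mouse.

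Group means were fitted to these counts in edgeR (version 4.0.16, under R 4.3.3) after TMM scaling and filterByExpr (15414 genes kept), with the robust option of its quasi-likelihood fit, and p-values were adjusted by Benjamini-Hochberg over all tested genes and called under 0.05. DESeq2 (version 1.42.0) and sva (version 3.50.0) served as alternatives, as did other scalings, filters and sample sets. Simulated counts with known changes tested the fit. Plots were drawn in Python (version 3.11.15) with matplotlib (version 3.10.9). The 10 genes, the pathway, marker and motif lists and the rules for naming genes (the 10 members, the 2 called genes of largest change per list, the neighbours of Tlr7 and the 3 genes most like each member) were chosen with earlier results of these data known. Genes named beyond these rules (Unc93b1, Ly96, Rela, Ccl2, Cxcl10, Tnfaip3, Tollip and Sigirr) were chosen after their values were seen. Labels carry no replicate numbers. Counts differed beyond sampling noise in all pairs of mice within a group (chi-square per gene of 8.57 to 342).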

Additional observations from a re-analysis of the deposited data

Results flagged for a closer look

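In XX Te Intact livers, mouse 2 was far above the other 5 mice for 5 of the 10 genes by the gap between the highest and the nearest value. It had 11.2 CPM of Tlr1 where the others had 1.18 to 2.49, 10.2 CPM of Tlr2 where they had 2.48 to 5.09, and 8.23 CPM of Tlr4 where they had 3.05 to 4.0. It also had 9.05 CPM of Tlr8 against 2.65 to 4.73 and 6.65 CPM of Tlr13 against 2.26 to 3.24. The same mouse had the highest Kupffer cell, monocyte and neutrophil marker sums of its group, and their part in its receptor levels was not tested. In XY Te Intact livers, mouse 5 had 13.6 CPM of Tlr3 where the others had 9.41 to 11.0. Over the 80 combinations of gene and group examined, chance would mark about 1 in 20 if they were independent. They were not, because most of the genes varied together from mouse to mouse, so that this rate is no measure of the marks found.

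The XX minus XY difference itself differed between GDX and Intact mice for 3 genes on the log2 scale, by -1.04 for Tlr4, -1.19 for Tlr7 and -1.48 for Tlr8 (adjusted p = 0.0184, 0.011 and 0.00975, edgeR quasi-likelihood, Benjamini-Hochberg). Without XX Te Intact mouse 2 the same number of genes, 3, was called, against 0.739% of all genes, where the fit of all 48 mice had 2.12%. Tlr4, Tlr7 and Tlr8 were called in all 48 fits that left out 1 mouse. GDX and Intact mice also differed in weeks on HFD, in age, in cohort and in the share of reads counted to no feature, and these cannot be told apart.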

How the results depend on the processing

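No direction of a called value reversed under the alternatives run. The counts of called genes that moved by over 1.5 times were those for the difference between GDX and Intact mice (3, and 5 with library totals, 6 with at least 10 counts in at least 24 mice and 5 in DESeq2, while the share over all genes rose from 2.12% to 3.54, 4.33 and 4.29%), Te Intact mice (2, and 0 when only the groups compared were fitted), the gonadal effect (5, and 3 with library totals or with only the groups compared), ovariectomy (4, and 2 with 1 surrogate variable), castration (5, and 8 with library totals, 2 with no filter beyond 1 count, 3 with 1 surrogate variable and 3 with only the groups compared) and castration minus ovariectomy (0, and 2 with 1 surrogate variable or DESeq2, against 7.75 and 8.01% of all genes). In Te Intact mice the share over all genes went from 2.1 to 0.0974%. For the gonadal effect it went from 25.3% to 20.5% with library totals and 11.8% with only the groups compared. With ovariectomy it went from 69.4 to 55.1%, and with castration from 63.3% to 68.2, 31.1, 60.4 and 64.6% in the order given. The cause of these moves was not tested. Leaving out 1 mouse at a time gave 9 to 9 called genes for XX against XY, 7 to 9 in Intact, 9 to 10 in GDX, 7 to 8 in Ov Intact, 2 to 5 in Te Intact, 8 to 9 in Ov GDX and 8 to 9 in Te GDX mice, 3 to 6 for the difference between GDX and Intact mice, 3 to 8 for the gonadal effect, 0 to 0 after GDX, 4 to 4 for ovariectomy, 3 to 7 for castration and 0 to 4 for castration minus ovariectomy. The share over all genes moved with the mouse left out. Without XX Te Intact mouse 2 it was 3.61% in Te Intact mice (5 called), 30.1% for the gonadal effect (8) and 63% for castration (7). Without XX Te Intact mouse 1 it was 19.8% for the gonadal effect (3), and without XY Te GDX mouse 1 it was 60.6% for castration (3). With 47 mice, 1 of 130 single values lost its call (Tlr13, gonadal effect, 0.60, adjusted p = 0.0527 in edgeR).

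Library totals in place of TMM moved the median of all genes by -0.10 on the log2 scale for XX against XY, -0.18 within GDX mice, 0.21 for ovariectomy and 0.20 for castration. The genes called higher in XX and in XY were then 1208 and 3081, against 3382 and 2275 with TMM, 1868 and 2804 with no filter, and 2043 and 2342 with at least 10 counts in at least 24 mice. With library totals 7355 genes rose and 3769 fell with ovariectomy (5554 and 5141 with TMM), and 7296 rose and 3211 fell with castration (5147 and 4612). Tlr9 rested on 2 to 22 reads in XX livers, which limits its values there. No paired analysis was possible because the labels give the mice no replicate numbers and each mouse gave 1 library.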
